A study of Mus musculus with 6 samples.

Results

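The distal imprinted domain of mouse chromosome 7 carries H19 and Igf2 at one end and the large gene Kcnq1 with its imprinted neighbors at the other. The domain was taken as the 700 consecutive 2-kb tiles that run for 1400 kb from Syt8 to Nadsyn1 on the NCBIM37 assembly, out of 1327469 tiles in the genome. Within it, 10 genes were followed by name out of 37310 annotated in all, namely H19, Igf2, Ascl2, Cd81, Tssc4, Trpm5, Kcnq1, Cdkn1c, Slc22a18 and Phlda2, and 42 annotated genes overlap the window in total. Chromatin immunoprecipitation followed by sequencing (ChIP-seq) measured H3K9me2, H3K27me3 and H3K9me3 in mouse embryonic stem cells (ESCs) of 2 genotypes, with 1 library for each mark and genotype. Both genotypes lacked Dicer, the enzyme that makes small interfering and micro RNAs, and derived from ESCs with loxP sites on both alleles of Dnmt1, the maintenance DNA methyltransferase. Dicer had been knocked out with CRISPR in lines grown from single-cell colonies, in serum and LIF with or without feeder cells. In the Dicer KO cells Dnmt1 was left in place, and in the Dicer KO/Dnmt1 cKO cells it had been removed by Cre induced with tamoxifen. The labels give E14 as the ESC strain where the methods give C57BL/6, and the labels do not state how many days passed between induction and collection of these libraries.

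Imprinted genes are expressed from one parental allele. At H19 and Igf2, a control region upstream of H19 is methylated on the paternal copy, and the unmethylated maternal copy binds CTCF, which insulates Igf2 from enhancers beyond H19. In the Kcnq1 portion of the domain, the control region KvDMR1 lies inside Kcnq1, is methylated on the maternal copy, and on the paternal copy drives the long antisense RNA Kcnq1ot1, which silences neighbors such as Cdkn1c, Phlda2, Slc22a18 and Ascl2. The methylated copy of many control regions also carries H3K9me3, placed there by SETDB1 after the zinc finger protein ZFP57 binds a methylated motif and recruits TRIM28. H3K27me3 is the mark of Polycomb repressive complex PRC2, and H3K9me2 is placed over broad domains by G9a and GLP. The libraries do not separate the parental alleles, so each value is an average over both.

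The H19 control region was read as the interval from 2 to 4 kb upstream of the annotated H19 5′ end, chr7:149766048-149768048, which overlaps no annotated gene. Its 2001 bases hold 60 CpG sites, a number that 1.82% of 70845 windows of the same length on chromosome 7 reach or exceed. The CTCF core letters GGNGGCAG, searched on both strands, occur 5 times, all on the minus strand. As many occur in 0.202% of those windows, and 38.9% hold at least 1. The ZFP57 letters TGCCGC, also searched on both strands, occur 5 times as well, against 11.8% of windows with at least 1 and 0.0367% with as many. The letters of 1 hit of each motif overlap. The 5 stretches around the CTCF core are shown because they carry the insulator letters of the region. They are printed 5′ to 3′ on the minus strand, which is the H19 strand, with the core in capitals and numbered by closeness to Igf2.
Site 1, chr7:149767927-149767958: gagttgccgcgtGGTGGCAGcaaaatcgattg
Site 2, chr7:149767802-149767833: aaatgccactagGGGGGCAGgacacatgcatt
Site 3, chr7:149767683-149767714: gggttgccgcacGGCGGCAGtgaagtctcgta
Site 4, chr7:149766657-149766688: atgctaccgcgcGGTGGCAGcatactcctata
Site 5, chr7:149766202-149766233: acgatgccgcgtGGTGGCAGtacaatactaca

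Sites 1, 3 and 5 also hold tgccgc a few letters before the core. Site 2 is the stretch without a CpG, and the other 4 stretches hold 3 or 4 CpG sites each. A match is a description of letters and not of binding.

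KvDMR1 was read as the most CpG-rich 1 kb of Kcnq1 more than 5 kb from its start, because the annotation used here has no Kcnq1ot1 entry. This stretch, chr7:150480998-150481997, lies in an intron of Kcnq1, 188 kb into the gene, and holds 71 CpG sites, which 0.283% of 141813 windows of 1000 bases on chromosome 7 reach or exceed. TGCCGC occurs 3 times, against 6.25% of windows with at least 1 and 0.0931% with as many, and the CTCF core was not among its letters, which 23.0% of windows hold. The stretch with the 3 ZFP57 matches is shown on the plus strand with the matches in capitals, 2 of them reading GCGGCA because they lie on the other strand.
KvDMR1, chr7:150481537-150481686: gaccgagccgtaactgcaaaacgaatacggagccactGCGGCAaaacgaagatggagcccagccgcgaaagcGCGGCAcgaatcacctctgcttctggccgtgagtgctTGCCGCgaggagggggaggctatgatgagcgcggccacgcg

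The deposited value of a tile was the log2 ratio of its observed to its expected reads, and whole read numbers could be recovered from it. The libraries held between 16834940 and 27162045 reads. Below, the level of a mark is the number of reads per 2-kb tile divided by the genome-wide mean of that library, so that the genome mean is 1. A log2 change is the level in Dicer KO/Dnmt1 cKO over that in Dicer KO, and the range in parentheses is an exact 95% interval that covers counting error only. With 1 library for each mark and genotype there was no replicate check, so no change was tested and differences between cultures cannot be told apart from those between genotypes. As a check of the ESC label, H3K27me3 was read at promoters. It was under 2-fold above the genome mean at 7 of 8 ESC genes, a list with Pou5f1 and Nanog, with a median level of 0.448 in Dicer KO and 0.416 in Dicer KO/Dnmt1 cKO, and at or above that level at 8 of 8 lineage genes, a list with Gata4 and Pax6, with medians of 6.82 and 4.98. Over 4 genes of feeder fibroblasts the medians were 2.61 and 2.29, with 3 and 2 of them at least 2-fold above the genome mean.

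H3K27me3 set the domain apart from the rest of the genome. In Dicer KO, 387 of the 700 tiles, or 55.3% (Wilson 95% interval 51.6 to 58.9%), were at least 2-fold above the genome mean, where 9.36% of all tiles were. In Dicer KO/Dnmt1 cKO the number was 306, or 43.7% (40.1 to 47.4%), against 8.13% of all tiles. The mark lay in blocks rather than peaks. Runs of tiles at 3 or more times the genome mean in Dicer KO numbered 65, of which 24 were at least 3 tiles long. The longest spanned 42 kb around H19 and 38 kb from the 3′ end of Kcnq1 towards Cdkn1c, and the run over Igf2 spanned 18 kb. H3K9me2 and H3K9me3 were closer to the genome. H3K9me2 was at least 2-fold above the mean in 61 tiles of Dicer KO and 57 of Dicer KO/Dnmt1 cKO, or 8.71% and 8.14%, against 4.03% and 3.17% of all tiles. H3K9me3 passed that level in 33 and 38 tiles, or 4.71% and 5.43%, against 3.38% and 3.21%.

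**Figure D1:**
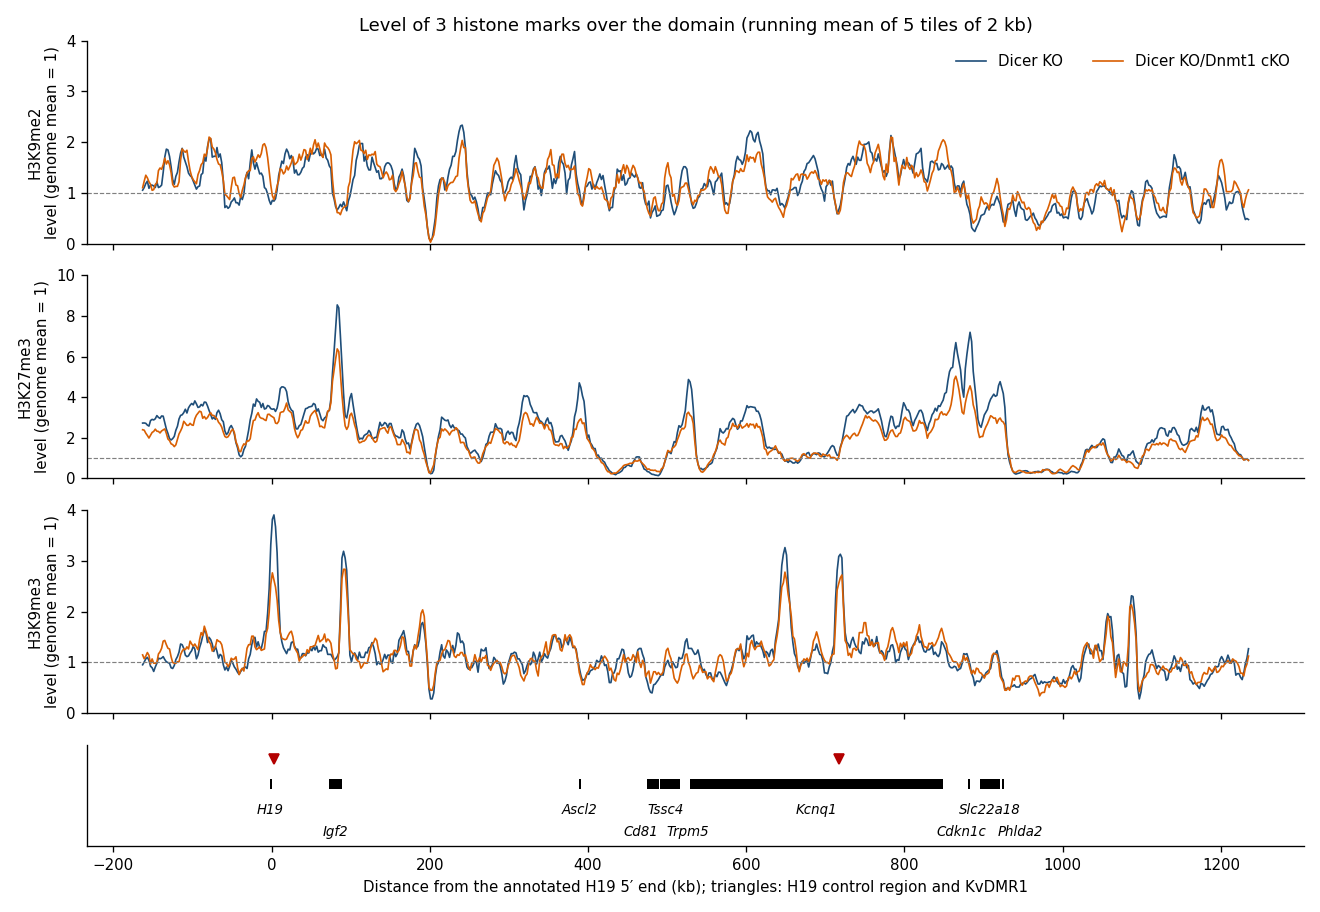
Level of H3K9me2, H3K27me3 and H3K9me3 (y axes, genome mean 1, running mean of 5 tiles of 2 kb) against distance from the H19 5′ end in kb, in Dicer KO (blue) and Dicer KO/Dnmt1 cKO (orange), 1 library each, with the member genes as bars and both control regions as triangles. The dip of all 3 marks near 200 kb is a stretch of 7 tiles with 19 to 49 reads in each Dicer KO library, H3K27me3 lies in broad blocks, lower in Dicer KO/Dnmt1 cKO over most of the domain, and H3K9me3 rises in isolated peaks at the control regions and at a few other places.

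H3K9me3 at the H19 control region was lower in the cells without Dnmt1. Over its 2 tiles the Dicer KO library held 144 reads and the Dicer KO/Dnmt1 cKO library 89, which are levels of 5.26 and 3.12. The log2 change was -0.75 (-1.15 to -0.36). Among all runs of 2 tiles in the genome with a mean of at least 10 reads per tile, 2.93% had a change as low or lower. The flanks, the tiles within 20 kb on either side apart from the 2 nearest, stood at 1.39 and 1.46, a log2 change of 0.07 (-0.16 to 0.30). The flanks thus showed no such difference. Of the 2 tiles, the one that holds nearly all of the region went from 82 to 53 reads and the one on its Igf2 side from 62 to 36. Outside them, the peak extended into the H19 promoter, where the tile over the 5′ end went from 54 to 40 reads.

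The other marks behaved differently at the H19 control region. H3K9me2 was low in a surrounding of high H3K9me2, with 14 and 22 reads, or levels of 0.552 and 0.712, where the flanks stood at 1.44 and 1.64. H3K27me3 had 127 reads in Dicer KO and 75 in Dicer KO/Dnmt1 cKO, or levels of 3.10 and 2.34. Its log2 change of -0.41 (-0.84 to 0.02) was close to that of the flanks, which went from 3.85 to 3.15, or by -0.29 (-0.42 to -0.16). H3K9me3 and H3K27me3 were thus both above the genome mean in the same tiles, and these libraries cannot show whether they lay on the same allele or in the same cells.

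KvDMR1 also carried a peak of H3K9me3. Its tile held 75 and 61 reads, which are levels of 5.48 and 4.28, where the tile with most of the H19 control region stood at 6.00 and 3.72. The flanks of KvDMR1 stood at 1.17 and 1.14. The log2 change of -0.36 (-0.87 to 0.15) has an interval that holds 0, and 24.8% of all tiles that reached the same minimum had a change as low or lower. The next tile towards the 3′ end of Kcnq1 held 56 reads in both libraries. The intervals of the changes at the H19 control region and at KvDMR1 overlap, and a difference between them was not detectable at this depth.

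The other marks were below the genome mean at KvDMR1 itself, and of them only H3K9me2 was nearly absent. The median tile of the genome held 18 H3K27me3 reads in Dicer KO and 14 in Dicer KO/Dnmt1 cKO. H3K27me3 had 10 and 12 reads there, or levels of 0.489 and 0.749, in flanks that went from 2.24 to 1.64. H3K9me2 had 3 and 2 reads, in flanks at 1.31 and 1.30. KvDMR1 marked a step in H3K27me3. Over the 30 tiles of the 60 kb before it, towards the Kcnq1 start, the level was 1.16 in Dicer KO and 1.08 in Dicer KO/Dnmt1 cKO, and 0 of 30 tiles were at least 2-fold above the genome mean in either library. Over the 30 tiles of the 60 kb after it, the level was 3.002 and 2.36, and 25 and 19 tiles passed that level. The stretch with little H3K27me3 did not reach the Kcnq1 start, as given below for steps of 20 kb along the gene. It lies on the side over which Kcnq1ot1 is known to be transcribed. These libraries do not measure RNA, and whether this transcription bears on H3K27me3 was not tested. H3K9me2 was 1.24 and 1.25 before KvDMR1 and 1.58 and 1.54 after it, so the step was less marked for this mark. The windows on either side were chosen after the values were seen, and their GC content differed, with 42.3% before and 48.3% after.

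**Figure D2:**
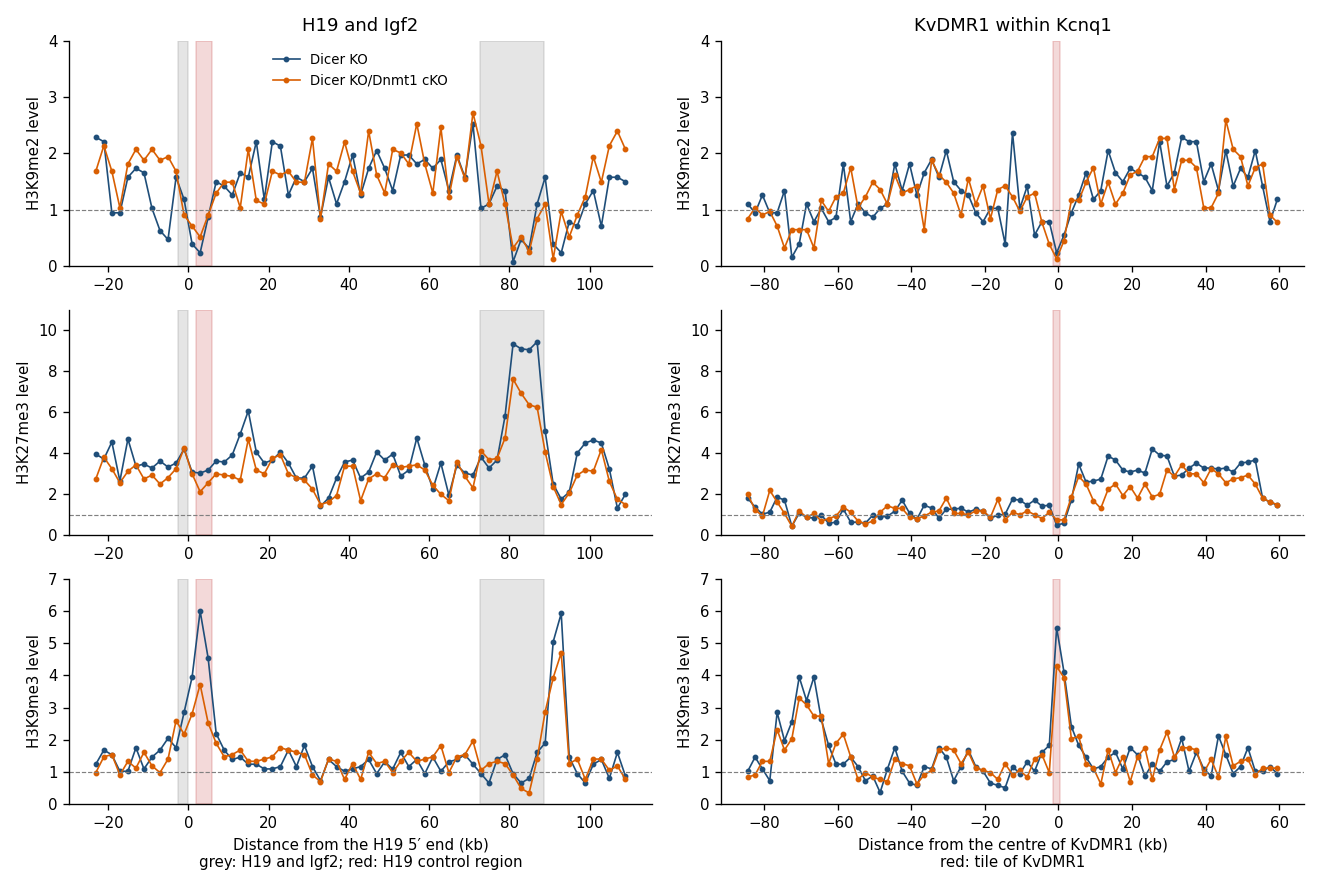
Level of each mark (y axes, genome mean 1) in single 2-kb tiles around H19 and Igf2 (left, kb from the H19 5′ end) and around KvDMR1 (right, kb from its centre), in Dicer KO (blue) and Dicer KO/Dnmt1 cKO (orange). H3K9me3 peaks at 6.00 and 3.72 in the tile that holds most of the H19 control region and at 5.48 and 4.28 in that of KvDMR1, tiles in which H3K9me2 dips, and H3K27me3 steps up past KvDMR1.

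Peaks of H3K9me3 were few in the domain, and the control regions were not the only ones. A level of at least 3 over both genotypes was reached by 12 tiles, which lay at 6 places. Of these places, the H19 control region with the H19 promoter held 3 tiles and KvDMR1 held 2. A pair of tiles just upstream of Igf2, within the annotated antisense gene Igf2as, held 150 reads in Dicer KO and 123 in Dicer KO/Dnmt1 cKO. Their levels of 5.48 and 4.31 were close to those of KvDMR1, and the log2 change was -0.35 (-0.70 to 0.01). This interval was picked after the values were seen. The remaining places were 3 tiles in the Kcnq1 intron at chr7:150410001-150416000 with levels of 3.22 to 3.95 in Dicer KO, 1 tile in Tnfrsf23, which encodes a TNF receptor family member, with 5.26, and 1 tile between Ins2 and Th with 3.07. CpG content varied between and within the places, around a domain median of 15 sites per tile. The 3 tiles at H19 held 47, 63 and 14 CpG sites, those at KvDMR1 78 and 36, and those upstream of Igf2 38 and 12, the last being the one with more H3K9me3. The 3 intron tiles held 4 to 10, the tile between Ins2 and Th 19, and the Tnfrsf23 tile 3.

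Of the 12 tiles, 11 were lower in Dicer KO/Dnmt1 cKO, with a median log2 change of -0.35. The exception was the tile between Ins2 and Th at 0.04. Among those lower, chr7:150412001-150414000 held 44 reads in both libraries and chr7:150482001-150484000 held 56 in both. These were at -0.06 each through scaling to library totals alone. All 5542 tiles of the genome at this level had a median of -0.18, and 71.5% of them were lower. A change of at least 1.5-fold downward was seen in 2 of the 12, both at H19, against 10.8% of such tiles in the genome. H3K9me2, which the choice of tiles did not use, was low in them. In Dicer KO, 11 of the 12 lay below the domain median of 1.18, with a range of 0.237 to 1.18 and a median of 0.473. In Dicer KO/Dnmt1 cKO, 11 of 12 again lay below the domain median of 1.17.

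H3K9me3 at H19 and KvDMR1 was of the same order as at other imprinted promoters. Of 8 others read over 3 tiles around the 5′ end, 5 had a level of at least 3 averaged over both genotypes. In Dicer KO these were Nnat at 5.58, Peg3 at 5.53, Airn at 5.19, Plagl1 at 4.14 and Peg10 at 3.31, and in Dicer KO/Dnmt1 cKO they stood at 2.92, 3.88, 3.88, 2.55 and 3.02. All 5 were lower, with log2 changes from -0.93 (-1.26 to -0.61) at Nnat, which encodes neuronatin, to -0.14 (-0.50 to 0.22) at Peg10, a gene derived from a retrotransposon. The changes at the H19 control region and at KvDMR1 lay within this range. The annotated 5′ ends of Snrpn, Mest and Grb10 were at 0.756 to 1.12 in Dicer KO, without an H3K9me3 peak in the tiles read. Their changes were 0.44 (-0.25 to 1.16), 0.47 (-0.15 to 1.11) and -0.16 (-0.79 to 0.47).

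**Figure D3:**
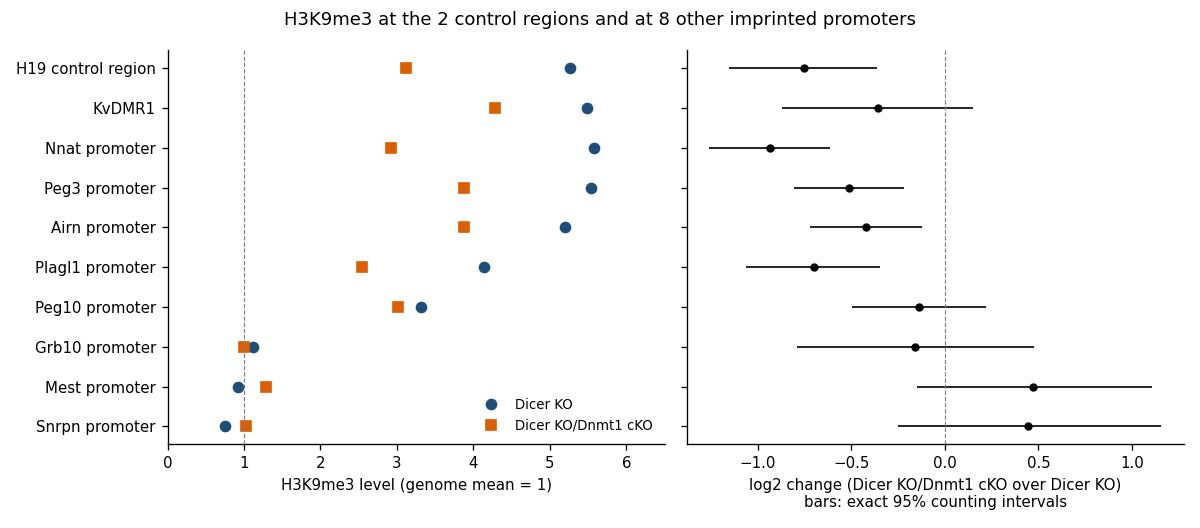
H3K9me3 level (left, genome mean 1) in Dicer KO (blue circles) and Dicer KO/Dnmt1 cKO (orange squares), and log2 change with its exact 95% counting interval (right), at the H19 control region, KvDMR1 and 8 other imprinted promoters. Both control regions and the 5 promoters with a level of at least 3 over both genotypes have log2 changes of -0.14 to -0.93. Snrpn, Mest and Grb10, without a peak, have 0.44, 0.47 and -0.16 with intervals that hold 0.

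H3K27me3 was lower in Dicer KO/Dnmt1 cKO over most of the domain. The summed reads went from 32799 to 21459, a log2 change of -0.26 (-0.28 to -0.24) after scaling to the totals of the libraries. The sums of the other marks did not shift beyond counting error, with 0.03 (-0.00 to 0.07) for H3K9me2 and -0.00 (-0.04 to 0.04) for H3K9me3. Of 614 tiles that held 10 or more H3K27me3 reads on average, 448 were lower and 166 higher in Dicer KO/Dnmt1 cKO. Their median log2 change was -0.23, where the median over the genome was -0.00 and over chromosome 7 was -0.04. The shift was broad and shallow. At least a 2-fold change was seen in 9 tiles downward and 5 upward, against 2.9% and 3.09% of tiles in the genome. For H3K9me2 the numbers were 9 of 563 tiles downward and 26 upward, against 2.97% and 4.06%, and for H3K9me3 they were 17 of 571 and 23, against 3.42% and 4.07%.

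Tiles rich in H3K27me3 were lower in Dicer KO/Dnmt1 cKO across the genome, so the domain was set beside tiles of equal level. At a level of 1 to 2 over both genotypes, the median log2 change was -0.17 in the domain and -0.00 in the genome. At 2 to 3 it was -0.27 and -0.04, at 3 to 5 it was -0.28 and -0.19, and at 5 to 8 it was -0.49 and -0.45. The domain thus differed most from the genome at moderate levels. Of 157 tiles at a level of at least 3, 34 were at least 1.5-fold lower, against 15.3% of such tiles in the genome. GC content was higher in the domain, with a median of 48.3% per tile against 42.95% elsewhere on chromosome 7, and on the whole chromosome the H3K27me3 change was lower in GC-rich tiles. Within each of 6 classes of GC content the domain median was below that of the rest of the chromosome, for example -0.14 against -0.04 at 40 to 44% and -0.29 against -0.10 at 52 to 56%.

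The shift was not equal along the domain. From Tspan32 to Trpm5, a section with a level of 0.741 in Dicer KO, the log2 change of H3K27me3 was 0.04 (-0.12 to 0.20). In the other 9 sections, from Syt8 at one end to Mrgpre at the other, it ran from -0.21 to -0.48. The section from the end of Kcnq1 to Phlda2 changed most, going from a level of 4.67 to 3.35, a change of -0.48 (-0.56 to -0.40). Single tiles of the genome at a level of 3 to 5 had a median of -0.19. The sections were chosen after the tiles were seen. H3K9me2 was higher in some sections, whether or not H3K27me3 was lower. From Nctc1 to H19 it went from 1.28 to 1.59, or by 0.32 (0.10 to 0.54), and from the end of Kcnq1 to Phlda2 from 0.873 to 1.01, or by 0.20 (0.02 to 0.39). From Tspan32 to Trpm5 it changed by 0.17 (0.01 to 0.33).

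H19, the maternally expressed non-coding RNA, showed no shift of H3K27me3 beyond counting error. The 3 tiles over the gene held 221 and 168 reads, which are levels of 3.60 and 3.49 and a log2 change of -0.04 (-0.34 to 0.25). H3K9me3 over the gene was 2.85 and 2.52. Around its 5′ end, in tiles that include the first tile of the control region, H3K9me3 went from 4.27 to 2.90, a change of -0.56 (-0.90 to -0.22). The tile chr7:149758001-149760000, just beyond the 3′ end of H19, held 6 H3K9me2 reads in Dicer KO and 30 in Dicer KO/Dnmt1 cKO. Its change, 2.04 (0.75 to 3.59), was the largest upward for this mark among domain tiles with at least 20 reads in sum.

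Igf2, the paternally expressed fetal growth factor, came after Cdkn1c among the member gene bodies in H3K27me3 in Dicer KO and was the highest in Dicer KO/Dnmt1 cKO. Around the 5′ end its level was 5.67 and 4.22, against 5.88 and 3.87 for Kcnq1 and 7.64 and 4.45 for Cdkn1c. The 9 tiles of the Igf2 gene body held 1198 reads in Dicer KO and 761 in Dicer KO/Dnmt1 cKO, which are levels of 6.51 and 5.27, a log2 change of -0.30 (-0.44 to -0.17). Its most enriched tile over both libraries, rich in CpG with 157 sites, went from 191 to 122 reads, or from a level of 9.33 to 7.61. H3K9me3 over the gene body stayed near the genome mean, at 1.16 and 1.22, although a peak lay just upstream. The 250 bases at its annotated 5′ end are shown with CpG in capitals on the minus strand. They hold 2 CpG sites, unlike the promoter of Phlda2 shown further on, and the H3K27me3 of Igf2 was highest inside the gene and not at this annotated start.
Igf2 5′ end, chr7:149852672-149852921: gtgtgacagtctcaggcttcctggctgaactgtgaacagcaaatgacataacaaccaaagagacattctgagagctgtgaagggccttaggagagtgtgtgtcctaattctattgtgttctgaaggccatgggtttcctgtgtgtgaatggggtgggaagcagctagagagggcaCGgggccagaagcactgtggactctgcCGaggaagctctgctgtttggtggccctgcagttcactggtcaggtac

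Cdkn1c, the maternally expressed inhibitor of cyclin-dependent kinases, had the highest H3K27me3 of the member gene bodies in Dicer KO and their largest downward change. Its 2 tiles held 347 reads in Dicer KO and 151 in Dicer KO/Dnmt1 cKO, which are levels of 8.48 and 4.71. The log2 change was -0.85 (-1.13 to -0.57). Around the 5′ end the levels were 7.64 and 4.45, a change of -0.78 (-1.02 to -0.54). H3K9me2 was low over the gene, at 0.513 and 0.583, and H3K9me3 was 1.10 and 0.841.

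Phlda2, a maternally expressed pleckstrin homology domain protein that restrains placental growth, and Slc22a18, a transporter of the organic cation family, lie beyond Cdkn1c. Over Phlda2 the H3K27me3 reads went from 263 to 122, or from a level of 6.43 to 3.81, a log2 change of -0.76 (-1.08 to -0.44). Over Slc22a18 they went from 1000 to 575, or from 3.49 to 2.56, a change of -0.45 (-0.60 to -0.30). Slc22a18 was also higher in H3K9me2, from 0.738 to 0.976, or by 0.40 (0.08 to 0.73). H3K9me2 over Phlda2 rested on 12 and 13 reads. The Phlda2 promoter, on the minus strand of the gene, holds 23 CpG sites, in capitals.
Phlda2 promoter, chr7:150688397-150688646: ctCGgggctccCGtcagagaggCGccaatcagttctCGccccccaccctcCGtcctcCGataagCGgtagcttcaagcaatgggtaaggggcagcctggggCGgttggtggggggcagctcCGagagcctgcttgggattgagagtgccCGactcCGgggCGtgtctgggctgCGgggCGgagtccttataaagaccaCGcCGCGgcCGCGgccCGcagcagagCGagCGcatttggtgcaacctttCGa

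Kcnq1, a voltage-gated potassium channel subunit, covered 161 tiles and held more tiles than all other members together. H3K27me3 went from 7525 to 4941 reads, or from a level of 2.28 to 1.91, a log2 change of -0.25 (-0.31 to -0.20), close to that of the domain as a whole. The levels varied along the gene. In steps of 20 kb in Dicer KO, they were 1.85 and 1.24 for those that begin at 0 and 20 kb into the gene. For those that begin at 40, 60 and 80 kb they were between 2.55 and 3.19. From 100 to 180 kb they were between 0.809 and 1.32, so the step at 20 kb was as low as this stretch. The step at 180 kb, which holds KvDMR1, was at 1.84. From 200 kb to the gene end they were between 2.65 and 3.42. The step that begins at 200 kb, just past KvDMR1, changed most, from 3.42 to 2.23, or by -0.61 (-0.79 to -0.44). At the Kcnq1 promoter the level went from 5.88 to 3.87, a change of -0.60 (-0.87 to -0.35). H3K9me3 over the whole gene was 1.30 and 1.31.

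Ascl2, a transcription factor of the trophoblast, was the remaining member with high H3K27me3. Its 2 tiles held 188 and 90 reads, which are levels of 4.59 and 2.81, a log2 change of -0.71 (-1.09 to -0.34). Around the 5′ end the change was -0.80 (-1.09 to -0.51). H3K9me2 and H3K9me3 over Ascl2 were below the genome mean in all 4 libraries, at 0.434 to 0.768.

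Cd81, Tssc4 and Trpm5 lie between Ascl2 and Kcnq1 in the section with little H3K27me3. Cd81, a tetraspanin, had 30 H3K27me3 reads over 8 tiles in Dicer KO and 51 in Dicer KO/Dnmt1 cKO, which are levels of 0.183 and 0.398. The log2 change of 1.12 (0.44 to 1.82) was thus between levels far below the genome mean. Of all genes with a level under 0.5, 18.7% were lower in Dicer KO/Dnmt1 cKO, their median change was 0.29, and 3.79% were at least 2-fold higher, as Cd81 was. H3K9me3 over Cd81 went from 56 to 84 reads, or by 0.52 (0.02 to 1.04). Tssc4, a splicing factor assembly protein, had 8 H3K27me3 reads in each library, 6 and 3 of H3K9me2, and 17 and 15 of H3K9me3, too few to show a difference. Trpm5, a calcium-activated cation channel of taste cells, overlaps Tssc4 in the annotation and had H3K27me3 levels of 1.38 and 1.27, with H3K9me2 up from 140 to 213 reads, or by 0.32 (0.01 to 0.64), although around its 5′ end 42 and 35 reads gave -0.55 (-1.24 to 0.13).

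Counted together, the members differed between genotypes in H3K27me3 more than in the other marks. Of 9 members with at least 20 H3K27me3 reads, 8 were lower, where 42.3% of all genes with as many reads were. The lower members had levels between 1 and 8 over both genotypes. Of all genes at levels of 1 to 2, 2 to 3, 3 to 5 and 5 to 8, 51.4%, 68.1%, 87.9% and 89.9% were lower. Being lower was thus common at the higher levels. Cdkn1c, Phlda2 and Ascl2 were at least 1.5-fold lower, where 5.19% of all genes with as many reads were. Among all genes of their level over both genotypes the share was higher, at 12.4% for levels of 3 to 5, where Ascl2 lies, and 27.1% for 5 to 8, where Cdkn1c and Phlda2 lie, with median changes of -0.28 and -0.47. Cd81 was the 1 member at least 1.5-fold higher, against 9.32% of all genes. These calls depended on the window. The shares of all genes given here are for gene bodies, and those for the other windows were not computed. Calls in the other windows therefore have no background beside them. With 5 kb added on either side, 0 of 10 members were 1.5-fold higher or lower, with -0.58 for Cdkn1c, -0.53 for Phlda2, -0.52 for Ascl2 and 0.58 for Cd81. Around the 5′ ends Kcnq1 joined the 3 lower members, Cd81 stood at 0.42 (-0.51 to 1.35), and Tssc4 was higher with 10 and 17 reads. The median log2 change of the members was -0.30, and that of all genes was 0.06. The other 29 genes of the domain with enough reads had a median of -0.16, and 0 of them differed by 1.5-fold in either direction. Over gene bodies, 0 of 9 members were 1.5-fold higher or lower in H3K9me2, against 9.1% and 4.45% of all genes, and the medians were 0.19 and 0.09. In H3K9me3, 0 of 10 bodies were 1.5-fold higher or lower, against 5.61% and 5.44%, and the medians were -0.06 and 0.03. Around the 5′ ends, 2 members were 1.5-fold higher in H3K9me2, Slc22a18 at 0.82 (0.04 to 1.64) and Cdkn1c at 0.76 (-0.14 to 1.72), and Tssc4 was lower at -0.72 (-1.83 to 0.35). With 5 kb added, H19 was the 1 member 1.5-fold higher in H3K9me2. In H3K9me3, Cd81 was higher around its 5′ end at 0.90 (0.09 to 1.76) and Kcnq1 lower around its own at -0.60 (-1.22 to 0.01). With 5 kb added, 0 of 10 members were 1.5-fold higher or lower in H3K9me3. Body counts of H3K9me3 do not include the control region upstream of H19.

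**Figure D4:**
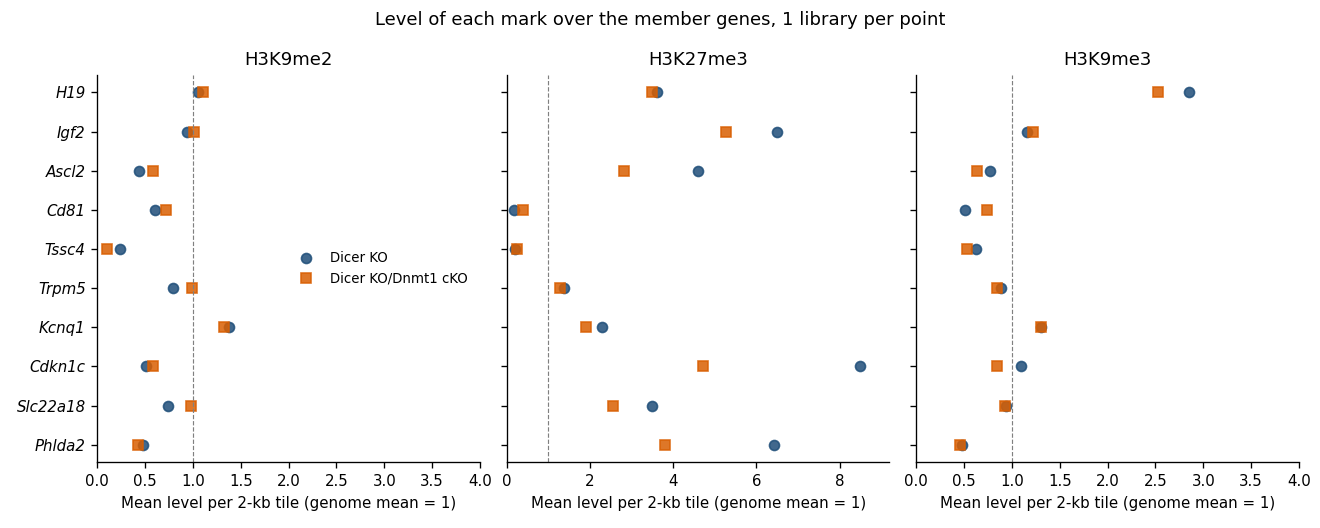
Mean level per 2-kb tile (x axes, genome mean 1) of each mark over the 10 member genes, in Dicer KO (blue circles) and Dicer KO/Dnmt1 cKO (orange squares), 1 library per point. H3K27me3 spans from 0.183 at Cd81 to 8.48 at Cdkn1c in Dicer KO, and the gap between genotypes is widest at Cdkn1c, which goes to 4.71, and Phlda2, which goes from 6.43 to 3.81.

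**Figure D5:**
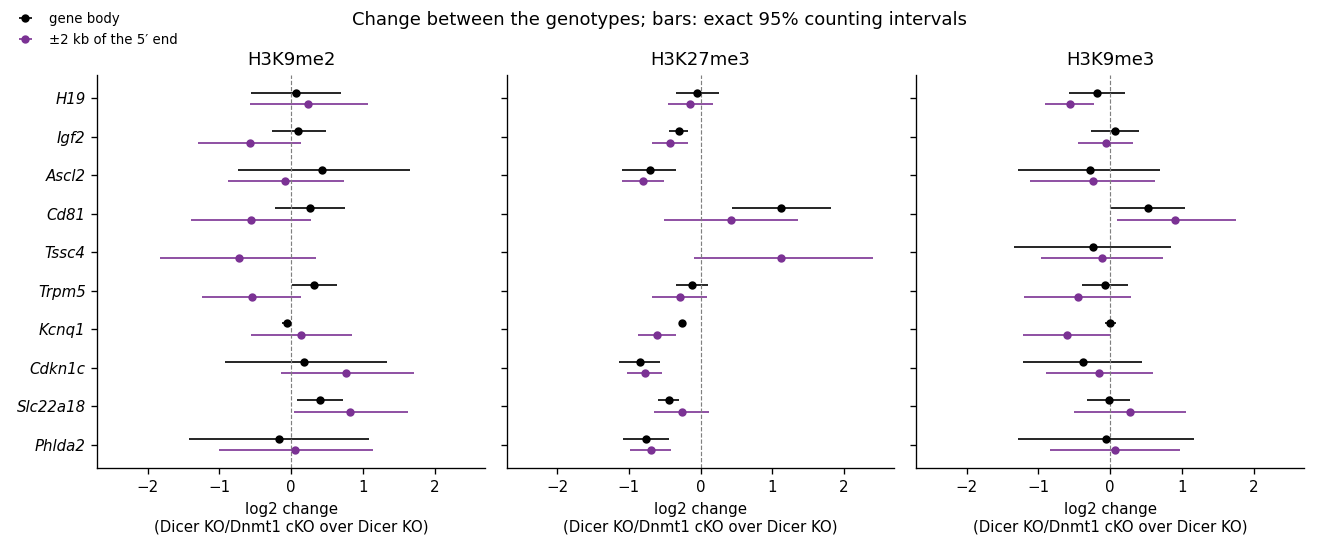
log2 change of each mark (Dicer KO/Dnmt1 cKO over Dicer KO, x axes) over the body (black) and within 2 kb of the 5′ end (purple) of each member, with exact 95% counting intervals and only where both libraries held at least 20 reads in sum. In H3K27me3 the intervals of Igf2, Ascl2, Kcnq1, Cdkn1c and Phlda2 lie below 0 in both windows, and in H3K9me3 that of H19 does so around the 5′ end.

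Across the 698 tiles of the domain with reads, the marks were less tied to each other than on chromosome 7 as a whole. Spearman's rho between H3K9me2 and H3K27me3 was 0.362 in Dicer KO and 0.366 in Dicer KO/Dnmt1 cKO, against 0.542 and 0.528 on the chromosome. Between H3K27me3 and H3K9me3 it was 0.288 and 0.313, against 0.436 and 0.471. Between H3K9me2 and H3K9me3 it was 0.449 and 0.429, the highest of the pairs in the domain, against 0.534 and 0.521. These marks thus went together across the domain, although H3K9me2 was low in the peaks of H3K9me3. The number of CpG sites in a tile went with lower H3K9me2, with a rho of -0.283 and -0.221, with slightly lower H3K9me3, with -0.169 and -0.113, and with slightly higher H3K27me3, with 0.140 and 0.154. Tiles are not independent and share mappability and base composition, so these values are descriptions.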

How the data were processed

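Per the study's methods, reads were trimmed with Trim Galore, mapped with Bowtie2 to NCBIM37 (Ensembl annotation), kept at a mapping quality of at least 20, and quantified in SeqMonk. The deposited values are the log2 of observed over expected reads per tile. The methods name tiles of 1 kb, but the deposited tiles are 2 kb. Removal of duplicate reads is not stated for ChIP-seq. Of 25 value columns, 19, among them the input, match none of the samples analysed here and were not used.

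The deposited log2 values were turned back into read numbers, with at most 1 value per library more than 0.1 reads from a whole number, and summed over tiles. Changes were scaled to library totals, with exact 95% conditional binomial intervals that cover counting error only. Tiles needed a mean of 10 reads and genes a sum of 20. No count model was fitted, since each mark and genotype has 1 library, and neither input nor spike-in was used for scaling. The scripts were tested on simulated data. Genes came from GENCODE for NCBIM37, and sequences from that genome. Tiles were named for many reads of a mark, for a large change, or for an H3K9me3 level of at least 3 over both genotypes. Most of the tiles with the largest changes are not named. All 10 members were named. Members, sections and lists were chosen with earlier results of these data known. Alternatives were other scalings, windows, minimums and tile widths. Python 3.11.15, numpy 2.4.6, pandas 2.3.3, scipy 1.17.1 and matplotlib 3.10.9 were used.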

Additional observations from a re-analysis of the deposited data

How the results depend on the processing

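No paired analysis was possible because the design holds 1 library of a mark per genotype, and for the same reason no library could be left out. Of 84 alternative values, 67 stayed within the interval of the main value. Both control regions kept the direction of their change for each mark under the alternatives tried. For H3K9me3 the values were -0.61 to -0.77 at the H19 control region and -0.31 to -0.37 at KvDMR1. Several of these alternatives could hardly have reversed a direction. The largest shift from another scaling was -0.045 log2, and at KvDMR1 the single tile with most H3K9me3 reads was the main tile itself. H3K27me3 at KvDMR1 fell from 0.62 to 0.04 with 1 further tile at each end. With a mean of at least 30 reads per tile, the median tile change of H3K9me2 was -0.092, against 0.04 in the main reading. That of H3K27me3 was then -0.28, and that of H3K9me3 was -0.32 against 0.03. This minimum leaves fewer tiles. The H3K27me3 median was -0.19 with no minimum and a pseudocount of 1 read, and -0.17 in tiles of 10 kb. The share of tiles past 3-fold was 29.7% and 13.9% for H3K27me3 in Dicer KO and Dicer KO/Dnmt1 cKO, 1.86% and 1.29% for H3K9me3, and 0.143% in both for H3K9me2. In tiles of 10 kb the share past 2-fold was 59.3% and 47.9% for H3K27me3, 3.57% for H3K9me3 in Dicer KO/Dnmt1 cKO, and 2.86% in both for H3K9me2. Against the median tile it was 51.0% for H3K27me3 in Dicer KO/Dnmt1 cKO. The median H3K9me2 change over the members, 0.19 over gene bodies, was -0.01 around their 5′ ends, within its interval. Among values of single genes, 102 stayed within their interval and 10 moved. Depth limited the values of H3K9me2 at KvDMR1, with 3 and 2 reads, and of all 3 marks over Tssc4.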

Other observations

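Genes of the domain outside the 10 members differed in H3K27me3 by neighborhood. Lsp1, a leukocyte actin-binding protein near the Syt8 end, went from a level of 3.50 to 2.80, a log2 change of -0.32 (-0.45 to -0.19). Th, the rate-limiting enzyme of catecholamine synthesis, went from 3.34 to 2.79, or by -0.26 (-0.38 to -0.13). Osbpl5, an oxysterol-binding protein that is imprinted in placenta, went from 2.29 to 1.83, or by -0.32 (-0.44 to -0.21). In contrast to these, Nap1l4, a histone chaperone, and Cars, a transfer RNA synthetase, were poor in the mark. The levels were 0.293 and 0.309 over Nap1l4 and 0.304 and 0.400 over Cars. The change over Cars was 0.39 (0.04 to 0.74). In H3K9me2, 2 of the 30 genes with enough reads were at least 1.5-fold higher, against 9.1% of all genes. They were Mrgpre, a sensory neuron receptor, at 0.62 (0.09 to 1.16), and AC158299.1 at 0.69 (0.05 to 1.37), at the Nadsyn1 end. AC158299.1 lies within Mrgpre, and its 31 and 61 reads are part of the 47 and 88 of Mrgpre. The 2 calls are thus not separate signals. These genes were picked after their values were seen.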
